A study of Mus musculus with 9 samples.

Results

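Cytochrome P450 enzymes were followed in mouse epidermis as the genes whose symbol is Cyp with a family number, a subfamily letter and a gene number, leaving out Cyp4f39, Cyp26b1 and pseudogenes. Of 18193 genes read by the arrays, 69 were such members, and 12 of them had a mean of 6 or more on the log2 scale over all 9 arrays, while 57 lay under 6. The cut at 6 was a choice of level: Cyp4f16 and Cyp1a1 lay just above it with means of 6.19 and 6.13, and Cyp2s1 and Cyp20a1 just below with 5.85 and 5.80. A gene was read by the probe set, a group of short probes for 1 transcript, that had its highest mean. Only probe sets assigned to a single gene were used, so 4 that match several P450 genes stayed out.

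Inactivated mice (Alox12b fl/fl Cre) carried 2 floxed copies of the epidermal lipoxygenase gene Alox12b and a Cre-ERT2 recombinase that becomes active with tamoxifen, under the keratin 14 promoter of basal keratinocytes. Controls (Alox12b fl/fl) were floxed littermates without Cre, and both groups had been backcrossed for 5 generations to the hairless SKH1 strain. Every mouse received 3 injections of 1 mg tamoxifen at 8 weeks of age, so tamoxifen is common to all arrays, while active Cre and the loss of Alox12b cannot be told apart. Epidermis scratched from frozen skin was taken 6 days later, 5 inactivated and 4 control mice, 1 array each; the labels call them biological replicates.

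P450 enzymes are haem proteins that insert an oxygen atom from molecular oxygen into lipids, hormones and foreign chemicals. Those of the endoplasmic reticulum take electrons from the reductase Por and from cytochrome b5, and those of mitochondria from ferredoxin. In skin they are known for oxidising drugs and carcinogens, for making and clearing fatty acid mediators, and for the turnover of retinoids, vitamin D, steroids and cholesterol.

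The clearest P450 difference was in the oxysterol hydroxylase Cyp7b1, which was 5.33-fold higher in the inactivated group. The fatty acid hydroxylase Cyp4f16, the extrahepatic enzyme Cyp2s1, Cyp3a13 and Cyp2b10 were also higher, each by about 2-fold (1.88-fold to 2.15-fold). The 2J subfamily members Cyp2j9 and Cyp2j6 of one gene cluster, the fatty acid hydroxylase Cyp4b1 and the sterol hydroxylases Cyp27a1 and Cyp39a1 were lower, by 1.82-fold to 3.94-fold. Cyp1a1 and Cyp1b1, the classical targets of the aryl hydrocarbon receptor, did not pass the test and differed widely between inactivated mice.

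**Figure D1:**
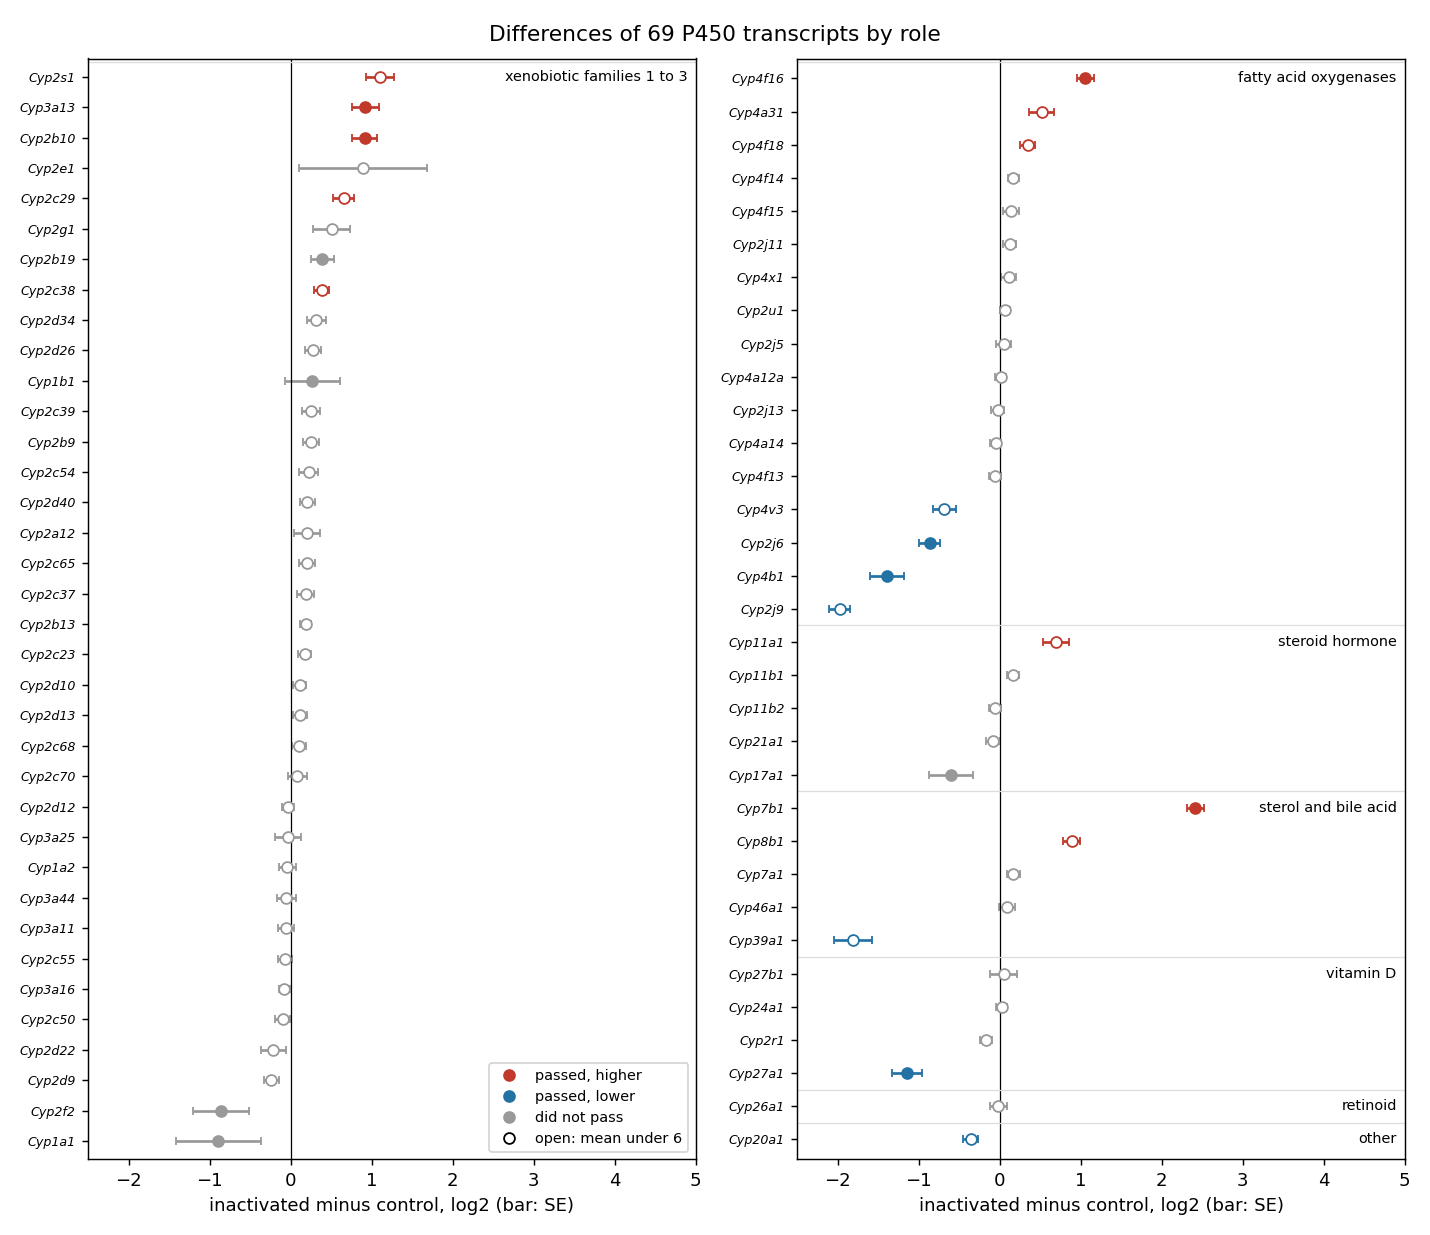
Difference between the groups, inactivated minus control, on the log2 scale with its standard error for all 69 P450 genes, grouped by role. Red and blue mark genes that passed as higher or lower, grey those that did not pass, and open circles genes with a mean under 6; most open circles lie near 0, while Cyp7b1 stands highest at 2.41 and Cyp2j9 lowest at -1.98.

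A gene passed at an adjusted p under 0.05 in limma's moderated test of 5 against 4 arrays, with Benjamini-Hochberg adjustment over all 45037 probe sets. Differences below are log2 values of the inactivated group less those of the controls, given ± SE. Of the 12 members with a mean of 6 or more, 4 were higher and 3 lower, where 20.1% and 28.7% of all genes of that level were (48.8% in either direction). Their groups did not overlap in 7 of 12, against 47.2% of such genes, and 4 passed at 2-fold or more, against 8.06%. Of the 57 members under 6, 7 were higher and 4 lower, where 11.7% and 10.8% of all genes under 6 were (22.5% in either direction). Their groups did not overlap in 13, against 18.9%, and 3 passed at 2-fold or more, against 3.89%. Over all 69 members this made 11 higher and 7 lower against 15.5% and 18.9% of all genes (34.4% in either direction), with a median difference of 0.10 against 0.03. At least 2-fold differences were found in 7 members, where 5.77% of all genes passed at that size. The groups did not overlap in 20 members, including all 18 that passed, and in 31.6% of all genes.

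Array medians were 4.34 to 4.42 and the highest values 13.47 to 13.53. The labels give no sex. Xist and Y-linked transcripts put 3 females and 2 males among the inactivated mice, and 1 female and 3 males among the controls. All 18 members that passed had the same sign within both inferred sexes, which had to hold because their groups did not overlap. No member passed for an interaction of group and inferred sex in limma, with 3 at an unadjusted p under 0.05 and 0.00550% of all genes passing; only 1 control was female, which limits this test. Alox12b itself averaged 9.89 ± 0.29 on the inactivated arrays (SD, n = 5), against 9.28 ± 0.10 on the controls (SD, n = 4), a difference of 0.61 ± 0.14 (adjusted p = 0.00694), or 1.53-fold. The gene thus passed as higher in the group labelled as inactivated, and the groups did not overlap. No source used here places its probe set relative to the floxed part, so it does not check the deletion.

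The keratinocyte markers Krt5 and Krt14 read 12.19 and 13.12 in the inactivated group and 12.26 and 12.65 in controls, so the tissue carried the markers of its label. Of the 7 keratinocyte markers, Krt14 passed as higher (0.47 ± 0.06) and Trp63 as lower (-0.35 ± 0.09), and the other 5 did not pass, with differences of -0.29 to -0.07. Other cells were present too. All 6 fibroblast markers were lower in the inactivated group, with list means of 9.92 to 10.71 on its arrays and 10.84 to 11.49 on the controls. Sebaceous gland markers passed as lower in 2 of 4 (6.67 to 7.70 on inactivated arrays, 7.47 to 8.46 on controls), macrophage markers in 4 of 5 (8.00 to 8.71 and 8.86 to 9.17). All 5 melanocyte markers were higher (4.66 to 6.28 and 3.40 to 3.73). T cell and Langerhans cell markers passed as lower in 2 of 3 each, and 1 of 5 endothelial markers as higher. Of 4 hepatocyte markers 2 passed as higher (Apoa1 and Ttr), while albumin (Alb) lay near the bottom of the scale, at 2.61 in the inactivated group and 2.48 in controls. In such bulk samples, fewer cells of a type and less RNA per cell cannot be told apart, and the part of these cell types in the P450 differences was not tested.

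Among the sterol and bile acid enzymes, Cyp7b1 adds a hydroxyl group to oxysterols, the oxidised forms of cholesterol. It read 7.73, 7.56, 7.48, 7.91 and 7.63 on the 5 inactivated arrays, against 5.32, 5.03, 5.22 and 5.41 on the 4 control arrays. All inactivated arrays thus lay more than 2 units above every control. The difference was 2.41 ± 0.11 (adjusted p = 5.11e-07; two-sided exact permutation p = 0.00794, the smallest that splits of 9 arrays into 5 and 4 can give). A second bright probe set of the gene gave 2.67 ± 0.14, and the difference was 2.35 among females and 2.42 among males. Leaving out any single array moved it between 2.34 and 2.47.

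Cyp39a1, which hydroxylates 24-hydroxycholesterol, went the other way. Its values were 4.05, 3.81, 4.97, 4.72 and 5.00 in the inactivated group and 6.45, 6.19, 6.43 and 6.21 in controls. The groups were apart, and the inactivated mice spread more widely than the controls. The gene fell by 1.81 ± 0.24 (adjusted p = 0.000318), or 3.51-fold, with -1.55 among females and -2.35 among males. Cyp8b1, the sterol 12-alpha-hydroxylase of bile acid synthesis in liver, rose by 0.89 ± 0.10 (adjusted p = 0.000139). Named after its values were seen, Cyp8b1 stayed dim, at 3.83 to 4.17 on inactivated arrays and 2.96 to 3.29 on controls. The other enzymes of this role, Cyp7a1 and Cyp46a1, did not pass (0.17 and 0.09).

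Cyp27a1, a mitochondrial enzyme that hydroxylates cholesterol side chains and can also 25-hydroxylate vitamin D, read 6.47, 5.87, 6.61, 6.71 and 6.93 in the inactivated group. In controls it read 7.50, 7.78, 7.59 and 7.79. Inactivated replicate 2 was the lowest array, and the highest inactivated array stayed below every control. Cyp27a1 fell by 1.15 ± 0.18 (adjusted p = 0.00102), or 2.21-fold, with -0.75 among females and -1.55 among males. The other vitamin D enzymes lay near background and did not pass: the activating Cyp27b1 differed by 0.05, the degrading Cyp24a1 by 0.02 and the 25-hydroxylase Cyp2r1 by -0.17. The retinoic acid hydroxylase Cyp26a1 was likewise dim, with -0.02.

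**Figure D2:**
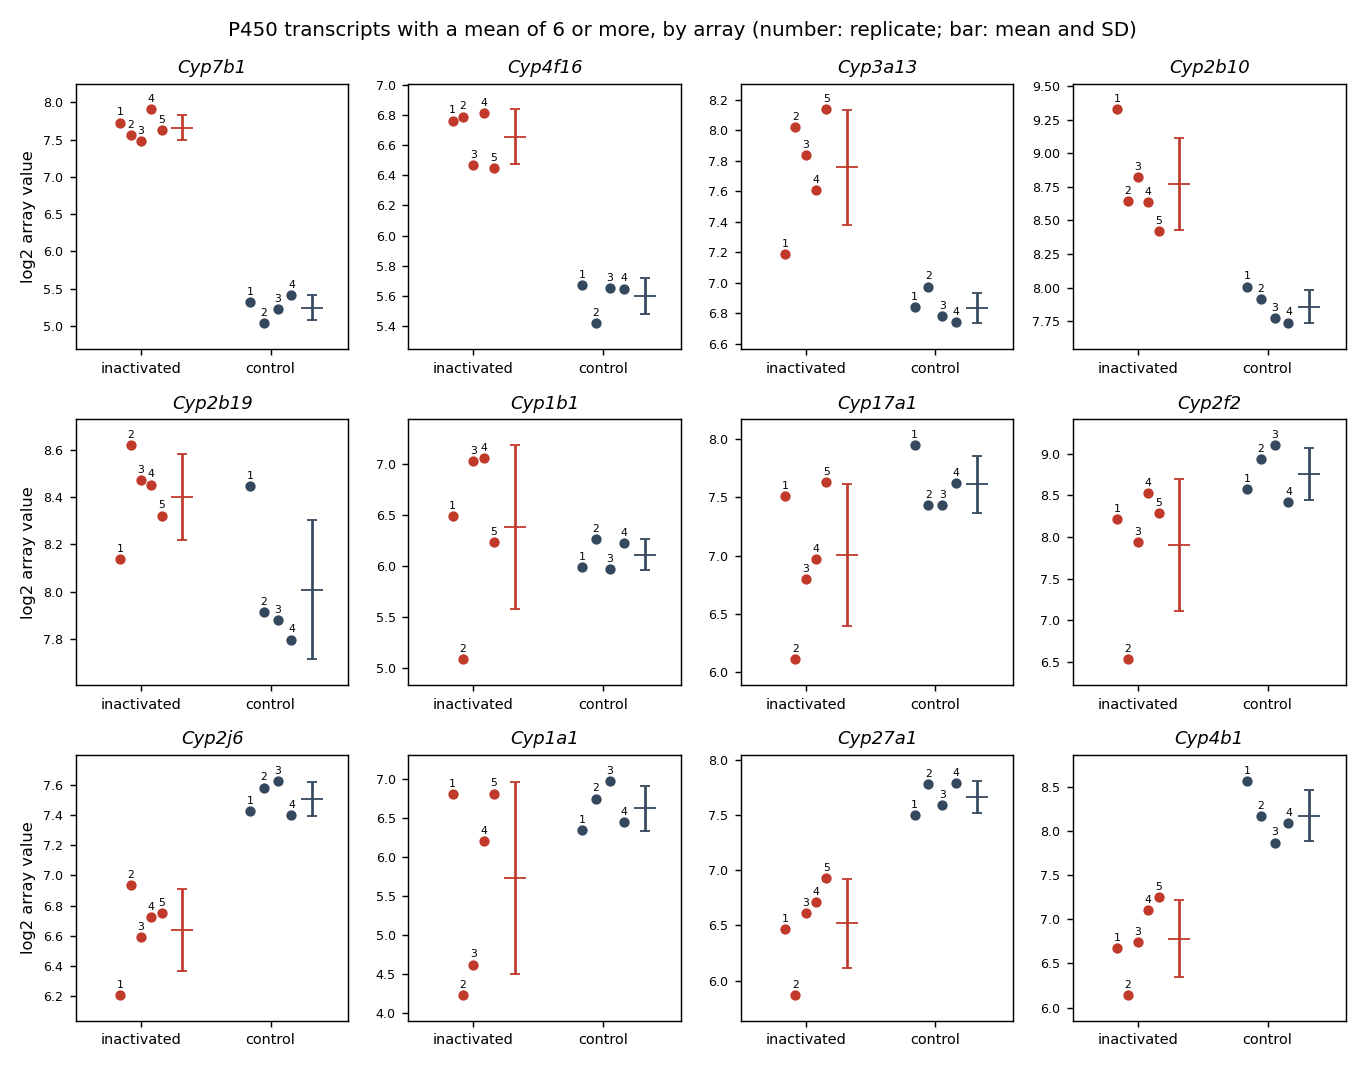
Values of the 12 P450 genes with a mean of 6 or more, on the log2 scale, for each of the 5 inactivated and 4 control arrays; numbers give the replicate and bars the mean and SD. Cyp7b1, Cyp4f16, Cyp3a13 and Cyp2b10 are higher and Cyp2j6, Cyp27a1 and Cyp4b1 lower without overlap, while inactivated replicate 2 lies below all other arrays for Cyp1a1, Cyp1b1, Cyp17a1 and Cyp2f2.

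Enzymes of the 2J subfamily, Cyp2u1 and family 4 were grouped as fatty acid oxygenases. Of these 17, 3 were higher, 4 lower and 10 did not pass, so that 41.2% passed in either direction, against 34.4% of all genes. The group leaves out the arachidonic acid epoxygenases Cyp2b19 and Cyp2c29, which were counted with families 1 to 3. Some enzymes of the 2J subfamily turn arachidonic acid into epoxides in rodents and other mammals. What Cyp2j6 and Cyp2j9 make was not measured here. Of the 5 measured 2J genes, 2 fell, against 18.9% of all genes. Cyp2j9 read 3.38, 3.36, 3.80, 3.66 and 3.94 on inactivated arrays, against 5.61, 5.67, 5.77 and 5.38 on controls. It fell by 1.98 ± 0.13 (adjusted p = 5.60e-06), or 3.94-fold, and all its inactivated values lay under 4. Cyp2j6 read 6.21, 6.93, 6.59, 6.72 and 6.75 on inactivated arrays and 7.42, 7.58, 7.62 and 7.40 on controls, again without overlap. It fell by 0.86 ± 0.13 (adjusted p = 0.000781), or 1.82-fold, and its other probe set by 1.46 ± 0.10. Within the inferred sexes Cyp2j9 differed by -1.81 among females and -2.23 among males, and Cyp2j6 by -0.73 and -0.96. Cyp2j5, Cyp2j11 and Cyp2j13 of the same gene cluster on chromosome 4 were dim and differed by 0.05, 0.12 and -0.03.

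Cyp2j6 and Cyp2j9 lie in one gene cluster and both fell, so their promoters are shown, each from 250 bases before to 50 bases after the RefSeq start of the gene. Those of Cyp1a1 and Cyp1b1 follow, because both genes are textbook targets of the aryl hydrocarbon receptor. Capitals mark the core that this receptor recognises (GCGTG or its complement CACGC) and the CCAAT box (CCAAT or ATTGG), searched on both strands.
Cyp2j6, GRCm38.p6 chr4:96553602-96553901, minus strand: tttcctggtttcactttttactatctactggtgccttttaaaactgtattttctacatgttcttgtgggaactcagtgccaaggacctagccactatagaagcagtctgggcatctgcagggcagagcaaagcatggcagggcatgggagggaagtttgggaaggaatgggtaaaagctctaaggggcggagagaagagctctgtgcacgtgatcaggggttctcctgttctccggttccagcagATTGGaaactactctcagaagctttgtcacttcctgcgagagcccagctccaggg
Cyp2j9, GRCm38.p6 chr4:96591436-96591735, minus strand: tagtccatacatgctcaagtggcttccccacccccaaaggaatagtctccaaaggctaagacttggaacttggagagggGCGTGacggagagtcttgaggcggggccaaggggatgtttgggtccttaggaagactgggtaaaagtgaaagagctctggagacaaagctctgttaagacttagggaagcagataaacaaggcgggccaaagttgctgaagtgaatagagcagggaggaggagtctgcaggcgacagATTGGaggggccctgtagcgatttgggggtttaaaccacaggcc
Cyp1a1, GRCm38.p6 chr9:57697363-57697662, plus strand: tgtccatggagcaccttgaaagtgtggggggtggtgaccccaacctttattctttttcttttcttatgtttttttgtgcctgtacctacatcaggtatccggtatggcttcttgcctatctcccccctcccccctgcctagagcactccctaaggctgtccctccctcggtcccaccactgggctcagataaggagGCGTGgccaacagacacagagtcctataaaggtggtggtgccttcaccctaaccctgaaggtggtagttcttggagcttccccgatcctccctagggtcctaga
Cyp1b1, GRCm38.p6 chr17:79715012-79715311, minus strand: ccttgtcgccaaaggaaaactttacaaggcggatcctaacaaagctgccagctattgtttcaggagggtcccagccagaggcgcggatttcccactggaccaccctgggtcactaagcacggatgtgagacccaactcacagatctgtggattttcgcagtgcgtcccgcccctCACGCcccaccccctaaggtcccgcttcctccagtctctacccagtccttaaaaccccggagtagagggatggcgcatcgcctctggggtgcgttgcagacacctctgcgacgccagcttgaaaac

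The Cyp2j6 and Cyp2j9 promoters were 50.3% identical when aligned end to end. The unrelated pair of Cyp2j6 and Cyp1a1 gave 49.9%, so the pair from one cluster was about as alike as the unrelated pair in this alignment. Both Cyp2j promoters held a reverse CCAAT box at the start of the gene, beginning 5 bases before it in Cyp2j6 and at base 7 after it in Cyp2j9. The receptor core was found in Cyp2j9 (171 bases before the start), Cyp1a1 (54 bases) and Cyp1b1 (76 bases), and not in this window of Cyp2j6. RefSeq promoters of GRCm38.p6 were at hand for 49 of the 69 members. The core stood in 12 of these 49 (24.5%), and the CCAAT box in 25 (51.0%). Of all 32851 promoters, 32.4% held the core and 37.4% the CCAAT box. A member counted if any of its promoters held the letters, whereas the shares over all promoters count single promoters. These shares differ in unit and cannot be compared directly. Of members that passed and had a promoter, the core stood in 2 of 9 higher and 3 of 6 lower ones. Such matches are descriptions of the letters.

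Cyp4b1, which hydroxylates medium-chain fatty acids and activates some foreign chemicals, read 6.67, 6.14, 6.74, 7.10 and 7.25 in the inactivated group. The controls read 8.57, 8.17, 7.87 and 8.09, all above the highest inactivated array. Cyp4b1 fell by 1.39 ± 0.21 (adjusted p = 0.00084), or 2.63-fold, with -1.54 among females and -1.64 among males. Cyp4a31 of the same cluster, singled out after its values were seen, passed as higher by 0.52 ± 0.16 at a level near background, 2.27 to 3.18 on inactivated arrays and 2.00 to 2.17 on controls.

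Cyp4f16 belongs to a subfamily that omega-hydroxylates long-chain fatty acids and leukotrienes. It read 6.76, 6.79, 6.47, 6.81 and 6.45 on inactivated arrays, against 5.67, 5.42, 5.65 and 5.65 on controls. The groups were far apart for their spread, and Cyp4f16 rose by 1.06 ± 0.10 (adjusted p = 5.15e-05), or 2.08-fold. The difference was 0.90 among females and 1.20 among males, and a dimmer probe set rose by 0.67 ± 0.12. Genes of this subfamily are alike, and reads of paralogs by the same probes cannot be told apart here. In the same cluster on chromosome 17, Cyp4f13, Cyp4f14 and Cyp4f15 did not pass (-0.06, 0.17 and 0.14). Cyp4f18 on chromosome 8 rose by 0.35 ± 0.09 near background, while Cyp4v3, the mouse counterpart of a human fatty acid hydroxylase, fell by 0.68 ± 0.14 (both named after their values were seen). The Cyp4v3 call rests on a probe set that can match several transcripts, and its specific probe set gave -0.51 ± 0.18 (adjusted p = 0.0635).

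Families 1 to 3 are best known for handling drugs and other foreign chemicals in liver. They were grouped here without the 2J genes, Cyp2u1 and Cyp2r1, which were counted under other roles. So Cyp2j6 and Cyp2j9, which fell, are not in this group. Of its 36 measured members, 5 were higher, none lower and 31 did not pass. Among all genes, 15.5% were higher and 18.9% lower (11.7% and 10.8% under 6). Most of them lay near background. Members of any role with a mean under 4 had a median difference of 0.11, and all genes under 6 one of 0.07. Cyp2s1, which is expressed in epithelia outside the liver and is induced by dioxin, read 6.02, 6.27, 6.93, 6.05 and 6.42 in the inactivated group. It read 5.08, 5.16, 5.27 and 5.43 in controls, below all inactivated arrays. Cyp2s1 rose by 1.10 ± 0.17 (adjusted p = 0.000929), or 2.15-fold, with 1.39 among females and 0.86 among males.

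Cyp2b10, the phenobarbital-inducible enzyme of mouse liver, read 9.33, 8.65, 8.82, 8.64 and 8.42 in the inactivated group and 8.01, 7.91, 7.77 and 7.74 in controls. Inactivated replicate 1 was the highest, and no array of one group reached the other. Cyp2b10 rose by 0.91 ± 0.16 (adjusted p = 0.00177), or 1.88-fold, and its 2 other probe sets by 1.00 ± 0.15 and 0.97 ± 0.15. The main probe set and the one with 1.00 can match several transcripts, and the specific one gave 0.97. On the main probe set the difference was 0.62 among females and 1.18 among males. The related Cyp2b19, an arachidonic acid epoxygenase of differentiated mouse keratinocytes, read 8.14, 8.62, 8.47, 8.45 and 8.32 in the inactivated group and 8.45, 7.91, 7.88 and 7.80 in controls. Control replicate 1 lay among the inactivated arrays. The Cyp2b19 difference of 0.39 ± 0.14 did not pass (adjusted p = 0.0598), but it passed without control replicate 1 (0.54, adjusted p = 0.00596), and was -0.03 among females, where that mouse is the only control, and 0.52 among males. It also passed without inactivated replicate 1 and under 6 other settings of scaling, filter, prior or weights.

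Cyp3a13, a 3A enzyme found outside the liver, read 7.19, 8.02, 7.84, 7.61 and 8.14 on inactivated arrays and 6.84, 6.97, 6.78 and 6.74 on controls. Inactivated replicate 1 came closest to the controls without reaching them. Cyp3a13 rose by 0.92 ± 0.17 (adjusted p = 0.00239), or 1.90-fold, with 1.02 among females and 0.77 among males. The 3A genes measured in the other cluster of chromosome 5, Cyp3a11, Cyp3a16, Cyp3a25 and Cyp3a44, did not pass. Cyp2c29, an arachidonic acid epoxygenase known from mouse liver, and Cyp2c38 rose by 0.65 ± 0.13 and 0.38 ± 0.10 at a low level, and were named after their values were seen. The other 8 measured genes of their cluster on chromosome 19 did not pass, nor did any of the 8 measured 2D genes of chromosome 15.

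Cyp1a1, which oxidises polycyclic hydrocarbons and ligands of the aryl hydrocarbon receptor, read 6.81, 4.23, 4.62, 6.21 and 6.81 in the inactivated group. In controls it read 6.35, 6.75, 6.98 and 6.45. Inactivated replicates 2 and 3 lay well below all other arrays, replicate 4 just below the controls, and replicates 1 and 5 within their range. Inactivated arrays averaged 5.74 ± 1.23 (SD, n = 5) and control arrays 6.63 ± 0.29 (SD, n = 4), and the difference of -0.89 ± 0.52 did not pass (adjusted p = 0.226). Without inactivated replicate 2 it was -0.52 (adjusted p = 0.416).

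Cyp1b1, which oxidises oestrogens and hydrocarbons, read 6.49, 5.09, 7.03, 7.06 and 6.23 in the inactivated group and 5.99, 6.27, 5.97 and 6.22 in controls. Replicate 2 was again lowest, while replicates 1, 3 and 4 lay above all controls. Its difference of 0.27 ± 0.34 did not pass (adjusted p = 0.592), passed as 0.59 without inactivated replicate 2 (adjusted p = 0.0412), and had opposite signs among females (0.78) and males (-0.37).

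Cyp2f2, known for oxidising naphthalene in airway club cells, read 8.21, 6.53, 7.94, 8.52 and 8.29 in the inactivated group and 8.57, 8.94, 9.10 and 8.42 in controls. Replicate 2 was the lowest array here too, and replicate 4 overlapped with the controls. The difference of -0.86 ± 0.35 did not pass (adjusted p = 0.0916); without inactivated replicate 2 it was -0.52 and passed (adjusted p = 0.0483).

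Of the 12 genes with a mean of 6 or more, inactivated replicate 2 was the lowest inactivated array in 6. On that array the fibroblast list (9.92), the sebaceous list (6.67) and the macrophage list (8.00) also had their lowest means of all 9 arrays, as had the endothelial list (4.88) and the adipocyte list (4.20). The melanocyte list (6.28) had its highest mean there, and the keratinocyte list read 12.24. Their part in the P450 values of this mouse was not tested.

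Cyp2e1, which oxidises ethanol and acetone, was named after its values were seen. It read 3.70, 4.08, 3.97, 8.27 and 5.01 in the inactivated group and 4.62, 4.05, 3.83 and 3.94 in controls. Inactivated replicate 4 alone was high. The same array had the highest means of the adipocyte list (6.66, against 4.20 to 5.25 on the other inactivated arrays and 4.61 to 5.20 on controls) and of the striated muscle list (7.55, against 3.75 to 4.55 and 3.78 to 4.10). Of the 4 adipocyte markers, Adipoq (8.30), the hormone adiponectin, and Cidec (6.01) were highest on that array, whereas Lep (2.91) and Cidea (9.43) were not; all 4 muscle markers were highest there. The Cyp2e1 difference of 0.89 ± 0.79 did not pass (adjusted p = 0.428) and was 0.08 without that array.

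**Figure D3:**
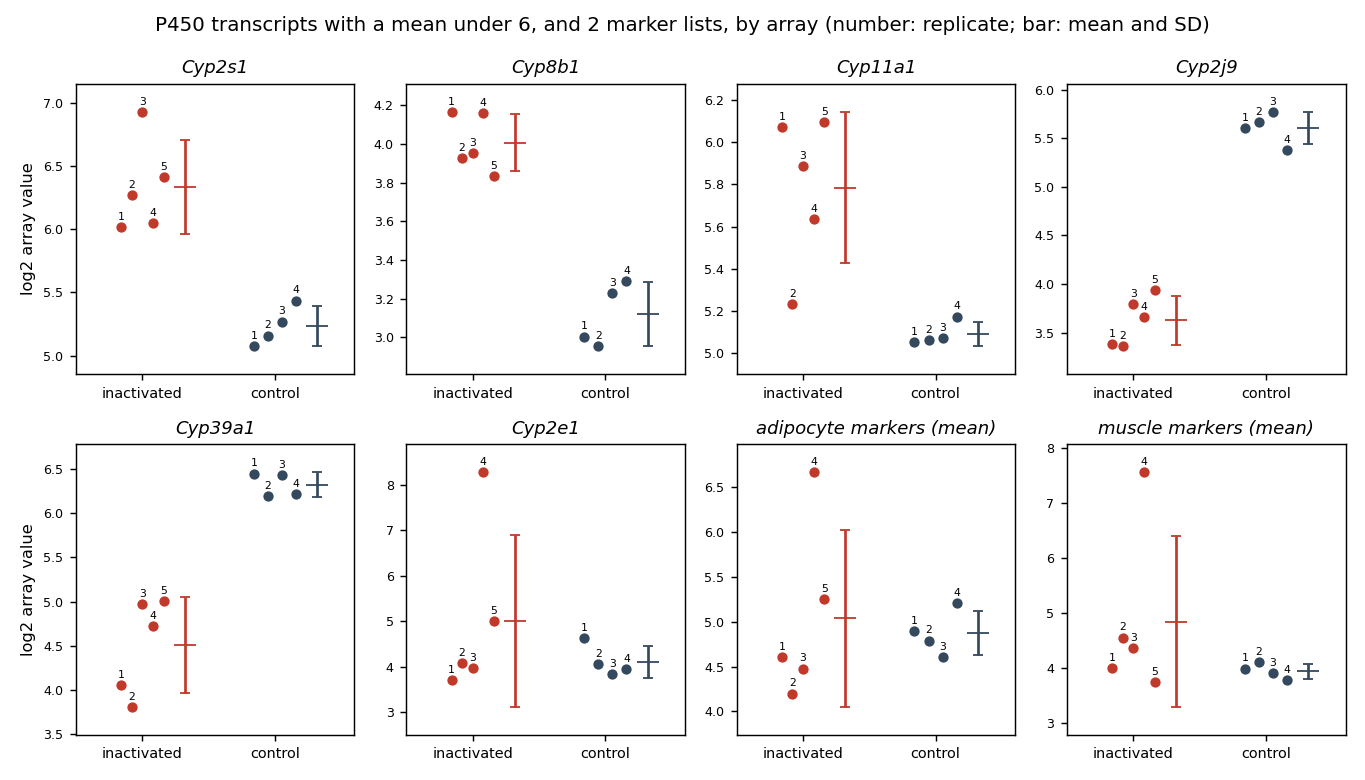
Values on the log2 scale of 6 P450 genes with a mean under 6, and list means of 4 adipocyte and 4 striated muscle markers, on each of the 5 inactivated and 4 control arrays; numbers give the replicate and bars the mean and SD. Cyp2s1, Cyp8b1 and Cyp11a1 are higher and Cyp2j9 and Cyp39a1 lower in the inactivated group, whereas Cyp2e1 is high on inactivated replicate 4 alone, as are both marker lists.

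Steroid hormone enzymes had 5 measured members, with 1 higher and 4 not passing, against 15.5% higher and 18.9% lower among all genes. Cyp17a1, the steroid 17-alpha-hydroxylase, read 7.51, 6.11, 6.80, 6.97 and 7.63 in the inactivated group and 7.95, 7.44, 7.44 and 7.62 in controls. Replicates 2, 3 and 4 lay below all controls, and replicates 1 and 5 among them. Its difference of -0.61 ± 0.27 did not pass (adjusted p = 0.121), and was -0.38 without inactivated replicate 2 and -0.76 without inactivated replicate 5, where it passed (adjusted p = 0.0481). Cyp11a1, which cleaves the side chain of cholesterol as the first step of steroid synthesis, was named after its values were seen. It rose by 0.69 ± 0.16 (adjusted p = 0.00838), with 5.23 to 6.10 on inactivated arrays and 5.05 to 5.17 on controls. Cyp11b1, Cyp11b2 and Cyp21a1 did not pass (0.17, -0.06 and -0.08).

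Of the 57 members with a mean under 6, 46 did not pass, with differences of -0.24 to 0.89, and 41 of these had a mean under 4. Members under 4 were near the background of the arrays, and 4 of 45 passed as higher and none as lower. Of all genes under 6, 11.7% passed as higher and 10.8% as lower. The shares of all genes under 4 were not computed. The orphan P450 Cyp20a1, named after its values were seen, fell by 0.36 ± 0.09 (adjusted p = 0.0116), a call that was lost under quantile normalisation (-0.24, adjusted p = 0.0597).

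Partners and regulators of P450 enzymes were read from 6 lists of 51 genes, of which 43 were measured. Of these, 11 were higher, 11 lower and 21 did not pass, against 15.5% higher and 18.9% lower among all genes. Many of the list genes had a mean of 6 or more, a level at which 20.1% of all genes were higher and 28.7% lower. Of 10 genes for electron transfer and haem, all with a mean of 6 or more, 3 rose and 2 fell (50% in either direction). Among all genes of that level, 20.1% rose and 28.7% fell (48.8% in either direction). Alas1, the rate-limiting enzyme of haem synthesis outside red cells, rose by 1.04 ± 0.09, the outer mitochondrial cytochrome b5 (Cyb5b) by 0.79 ± 0.08 and the haem oxygenase Hmox2 by 0.37 ± 0.07. The cytochrome b5 reductase Cyb5r3 fell by 0.68 ± 0.13 and the haem-binding Pgrmc2, outside the rule for names, by 0.49 ± 0.11. Por was not among the measured genes.

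The aryl hydrocarbon receptor Ahr, the transcription factor that drives Cyp1a1 and Cyp1b1, fell by 1.18 ± 0.08 (adjusted p = 6.85e-06), averaging 8.75 ± 0.15 on inactivated arrays (SD, n = 5) and 9.93 ± 0.01 on control arrays (SD, n = 4). Its repressor Ahrr fell by 0.79 ± 0.16, whereas Tiparp, another of its feedback genes, rose by 1.33 ± 0.20. Neither the partner Arnt (0.19) nor the target Nqo1 (0.28) passed; both were picked with their values known. So 1 of 6 measured genes of this pathway rose and 2 fell, against 15.5% and 18.9% of all genes.

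Nuclear receptors that control P450 genes fell in 7 of 15 and rose in 1, against 18.9% and 15.5% of all genes (28.7% and 20.1% of those with a mean of 6 or more). Their median difference was -0.18, against 0.03 over all genes and -0.07 over those with a mean of 6 or more. The fatty acid receptor Ppara fell by 2.19 ± 0.23, and the glucocorticoid receptor Nr3c1 by 0.90 ± 0.09. The vitamin D receptor Vdr, named outside the rule, fell by 1.32 ± 0.18. The retinoid X receptor Rxrb fell by 0.60 ± 0.07, and Ppard, the fatty acid receptor of keratinocytes, rose by 1.42 ± 0.09. The receptors for foreign chemicals Nr1i2 and Nr1i3, which control P450 genes in liver, were dim and did not pass (0.23 and 0.11).

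Of 5 genes that work beside the steroid P450 enzymes, 3 rose and none fell, against 15.5% and 18.9% of all genes. Hsd17b2, which inactivates sex steroids, rose by 1.62 ± 0.13, and Hsd11b1, which regenerates glucocorticoids, by 1.19 ± 0.22. The cholesterol carrier Star rose by 0.27 ± 0.09. Epoxide hydrolases open the epoxides that P450 enzymes make. Of 4 measured, 2 rose, Ephx3 by 0.88 ± 0.09 and Ephx4 by 0.67 ± 0.13, against 15.5% of all genes. The lanosterol demethylase Cyp51, a P450 of cholesterol synthesis that the symbol rule does not take in, rose by 0.37 ± 0.09, while Tbxas1 and Ptgis, which make thromboxane and prostacyclin, gave -0.01 and 0.00.

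**Figure D4:**
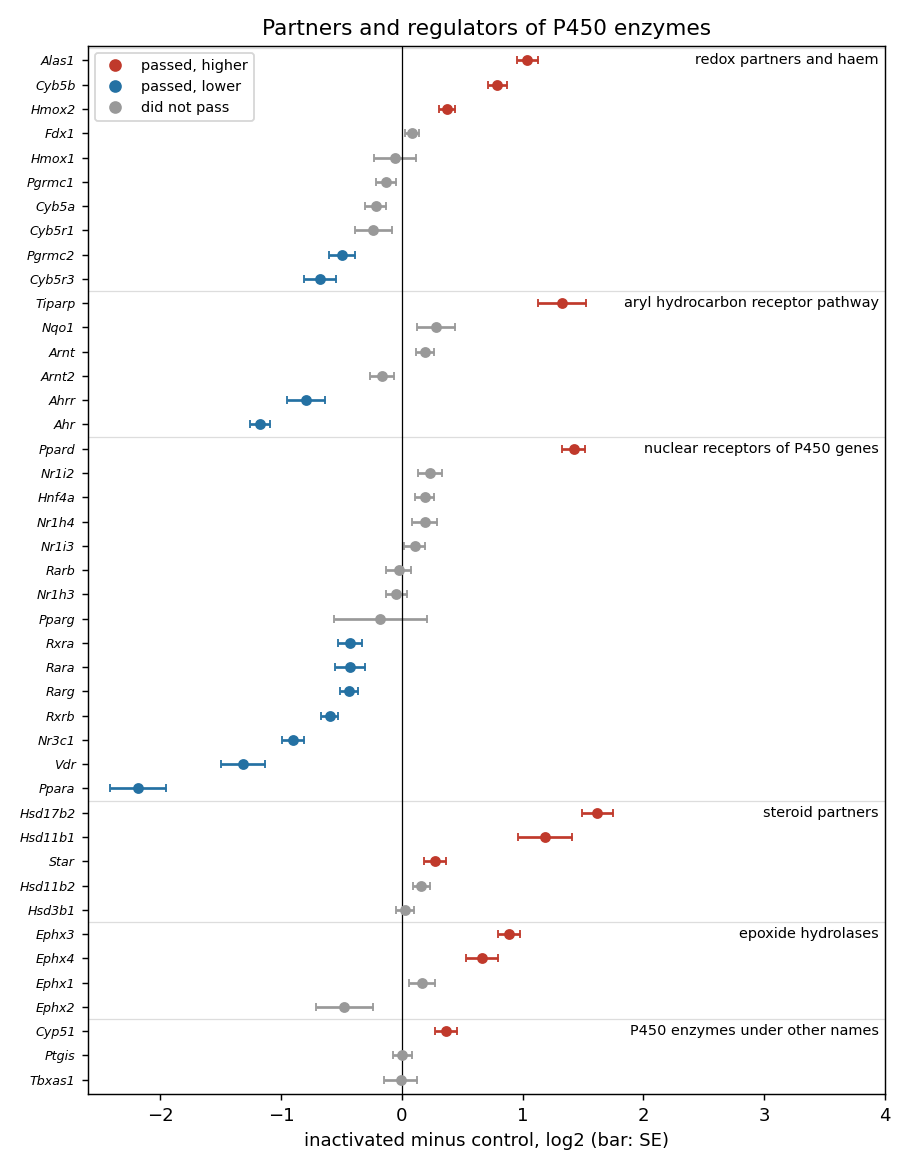
Difference between the groups, inactivated minus control, on the log2 scale with its standard error for 43 genes of 6 lists that work with or control P450 enzymes. Red and blue mark genes that passed as higher or lower and grey those that did not pass; Ppara is lowest at -2.19 and Hsd17b2 highest at 1.62.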

How the data were processed

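The authors deposited 1 table of log2 values for 45037 probe sets, 1 column per array; the base was inferred, since the highest values exceed 11.1, the natural log of the largest scanner value. Affymetrix Mouse Genome U430 2.0 arrays were used, per the labels' protocols, and the tool affy is named in the submitters' processing notes. No source used here states the background correction, normalisation or summary method. Summarised values can compress differences near background and near the top.

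The platform annotation gave 34945 probe sets 1 gene symbol, 932 several and 9160 none. All 69 members had an entry in the RefSeq table, assembly GRCm38.p6, used for names, chromosomes and gene neighbours; a cluster joined P450 genes less than 500000 bases apart. Groups were compared with limma 3.58.1 (lmFit, eBayes, two-sided, no covariates, 7 residual degrees of freedom) in R 4.3.3. Exact permutation tests used all splits of the arrays. Precision is limited by 9 arrays. Alignments used Biopython 1.88 (match 1, mismatch -1, gap opening -2, extension -0.5). Alternatives were other scalings, filters, priors, weights, probe set rules, thresholds, inferred sex, a replicate block and leaving out each array.

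Named were all members with a mean of 6 or more, dimmer ones that passed at 2-fold or reached 6 in a group, and up to 4 list genes that passed by lowest adjusted p. Other genes were named after their values were seen. Members and lists were chosen with earlier results of these data known.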

Additional observations from a re-analysis of the deposited data

Results flagged for a closer look

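A value far from the rest of its group was found in 3 of 42 groups examined, where chance gives about 1 in 20. Inactivated replicate 4 read 8.27 for Cyp2e1. Control replicate 2 read 5.42 for Cyp4f16, below the other controls, and control replicate 4 read 5.17 for Cyp11a1, above them. Cyp2e1 and Cyp11a1 were named after their values were seen, so the count cannot be set against that chance rate.

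A probe set that matches both Cyp4f37 and Cyp4f16, and so was used for no gene, was higher in the inactivated group by 0.89.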

How the results depend on the processing

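The members with a mean of 6 or more gave 4 or 5 higher and 3 or 4 lower under every setting run. Those under 6 that were higher numbered 12 (with 4 lower) after subtraction of array medians, a scaling that moved the median of all probe sets to 0.07 from 0.03; 3 when only probe sets at or above the median were tested, which left 11 of these members; and 4 at a threshold of 0.01. Over the arrays left out in turn, they were 5 to 10 higher and 4 or 5 lower, and the partner lists 10 or 11 higher and 10 to 12 lower. For 21 of the named members, 401 of 417 repeats kept direction and side of the threshold, 4 lost a call, 12 gained one and none turned. The dim Cyp4a31, Cyp4f18 and Cyp2c38, also named as higher, were not among these 21. Cyp2b19 passed under quantile normalisation (0.42), cyclic loess (0.42), array medians (0.44), the filter on dim probe sets, an intensity trend with a robust prior, and array weights (0.47). With the replicate number as a block, which leaves inactivated replicate 5 without a partner, Cyp17a1 passed (-0.76, adjusted p = 0.0137), Cyp20a1 did not (-0.37), and 8 members under 6 were higher and 3 lower; same-numbered arrays correlated at -0.27 to 0.08 in their deviations, so the numbers were not taken as pairs. With inferred sex as a covariate no call of these 21 members changed. The causes were not tested. Dim members are limited by signal near background.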
